A study of Mus musculus with 24 samples.

Results

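The constitutive proteasome subunits are taken here as the genes whose symbols begin with Psma, Psmb, Psmc or Psmd and end in a number, leaving out the 3 immunoproteasome subunits Psmb8, Psmb9 and Psmb10. They are 36 of the 23234 genes in each of the 2 expression tables, and the rule used no measured value. They comprise 8 core alpha genes (Psma), 8 core beta genes (Psmb), 6 ATPase genes (Psmc) and 14 non-ATPase genes (Psmd). RNA-seq libraries of primary B cells, freshly isolated from spleens of C57BL/6 mice, were compared in 4 groups of 3 libraries. The Tet DKO CD93- and Tet KO CD93+ groups are both labelled Tet2/Tet3-deficient, and the CTL CD93- and CTL CD93+ groups are labelled control. Tet2 and Tet3 encode enzymes that oxidise 5-methylcytosine in DNA, and CD93 is a surface protein carried by immature B cells of the spleen. How the genes were deleted, in which cells, the age of the mice and whether the libraries came from separate mice are not given in the labels. The p-values therefore measure spread between libraries, which may be technical.

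The proteasome degrades proteins that carry ubiquitin chains. Its barrel-shaped core particle has outer rings of alpha subunits, which control entry, and inner rings of beta subunits, of which Psmb5 has chymotrypsin-like, Psmb6 caspase-like and Psmb7 trypsin-like activity. A regulatory particle binds the ends of the barrel: its ATPase ring (Psmc) unfolds the substrate, and its non-ATPase subunits (Psmd) form the rest of the base and a lid that receive, de-ubiquitinate and position it. In lymphocytes Psmb8, Psmb9 and Psmb10 can take the places of Psmb5, Psmb6 and Psmb7, which changes the peptides available for presentation on MHC class I. When proteasome activity is low, the transcription factor Nfe2l1 can bind antioxidant response elements at subunit genes and raise their transcription.

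Promoters were searched because the genes changed together and because Nfe2l1 binds a known motif. RefSeq windows of GRCm38.p6 were available for 29 of the 36 genes, in 31 windows, and the 250 bases before each start were read on both strands. The antioxidant response element, TGACNNNGC, was present in 5 of 31 windows (16.1%), against 10.2% of all 32851 windows, and CCAAT in 12 of 31 (38.7%), against 33.8%. The shares are descriptions, and no binding was measured. Psmb5 and Psmb6 are shown as catalytic subunits with an element, and Psma7 as the alpha gene with the largest rescaled change in CD93+ cells. Capitals mark the antioxidant response element in Psmb5 (chr14:54617996-54618245, minus strand) and Psmb6 (chr11:70525107-70525356, plus strand), and CCAAT in Psma7 (chr2:180042465-180042714, minus strand).
Psmb5: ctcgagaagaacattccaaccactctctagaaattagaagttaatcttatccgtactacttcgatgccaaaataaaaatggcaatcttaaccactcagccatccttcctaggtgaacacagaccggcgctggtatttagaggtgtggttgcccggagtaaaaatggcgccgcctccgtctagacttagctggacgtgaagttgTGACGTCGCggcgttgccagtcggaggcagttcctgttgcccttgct
Psmb6: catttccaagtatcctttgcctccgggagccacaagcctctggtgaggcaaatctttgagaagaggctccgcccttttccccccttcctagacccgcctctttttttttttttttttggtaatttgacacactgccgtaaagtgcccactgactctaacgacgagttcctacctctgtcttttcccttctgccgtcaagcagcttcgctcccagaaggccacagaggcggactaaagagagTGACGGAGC
Psma7: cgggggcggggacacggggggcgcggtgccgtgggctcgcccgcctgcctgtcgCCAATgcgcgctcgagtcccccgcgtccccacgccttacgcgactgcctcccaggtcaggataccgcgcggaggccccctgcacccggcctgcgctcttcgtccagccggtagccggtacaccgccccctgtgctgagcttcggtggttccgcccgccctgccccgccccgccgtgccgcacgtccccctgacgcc

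The other 3 genes with the element code for regulatory particle proteins or, for Psmd9, a chaperone of its base, and only the stretch around the element is shown. The element, in capitals, lies on the strand shown in Psmd9 (chr5:123228129-123228189, plus strand) and as its reverse complement in Psmc6 (chr14:45329574-45329635, plus strand) and Psmd12 (chr11:107479278-107479319, plus strand).
Psmd9: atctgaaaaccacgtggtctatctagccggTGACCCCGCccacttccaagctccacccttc
Psmc6: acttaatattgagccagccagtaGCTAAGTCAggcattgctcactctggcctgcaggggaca
Psmd12: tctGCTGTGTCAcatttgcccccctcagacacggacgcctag
As described below, Psmb5, Psmb6 and Psmc6 rose in CD93- cells with the authors' scaling, whereas Psmd9 and Psmd12 did not pass the test there. After rescaling Psmc6 did not pass it either. In CD93+ cells no gene passed with the authors' scaling. After rescaling Psmb6 and Psmd12 passed there, whereas Psmb5, Psmc6 and Psmd9 did not.

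Expression was deposited as FPKM, which adjusts fragment counts for transcript length and library size. The summed FPKM of a library was 424032 to 463987 in Tet DKO CD93-, 342368 to 394709 in CTL CD93-, 309359 to 597968 in Tet KO CD93+ and 523898 to 595984 in CTL CD93+. The lowest total, 309359, was that of Tet KO CD93+ replicate 3, whose upper quartile over tested genes was 15.4 FPKM, against 25.8 to 30.05 FPKM in the other CD93+ libraries. In CD93- cells the upper quartile was 25.1 to 26.1 FPKM in Tet DKO and 18.7 to 24.3 FPKM in CTL libraries, without overlap. Differences are therefore given both with the authors' scaling and rescaled, with each library multiplied so that the upper quartiles over the tested genes are equal. B cell markers such as Cd79a were abundant in all 12 libraries, and Cd93 averaged 3.62 FPKM in Tet DKO CD93-, 4.34 FPKM in CTL CD93-, 40.5 FPKM in Tet KO CD93+ and 53.9 FPKM in CTL CD93+. By Xist and Ddx3y, the CD93- libraries came from males, whereas the 3 Tet KO CD93+ libraries and CTL CD93+ replicate 3 came from females and CTL CD93+ replicates 1 and 2 from males. Fewer cells of one type and less RNA per cell cannot be told apart in these bulk samples. The deposited RNA levels of Tet2 and Tet3 do not check the labels, because the deleted parts of the genes are not given.

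Among the 36 genes the level per transcript length spanned a wide range in controls. Psmb4, a non-catalytic beta subunit, had the highest mean, 83.2 ± 13.9 FPKM in CTL CD93- and 219 ± 31.6 FPKM in CTL CD93+ cells (SD, n = 3 each). Psma7, Psmb1 and Psmb3 followed in CTL CD93- cells with means of 71.0, 68.8 and 62.9 FPKM, which are closer together than their SDs of 6.82 to 11.5 FPKM can separate. Apart from Psmb11 and Psma8, given below, the lowest of the subunits proper was Psmd1, a scaffold of the base, at 17.5 ± 1.98 FPKM in CTL CD93-. Below it came Psmd5, Psmd10 and Psmd9, which match by symbol but encode chaperones that assemble the base, at 12.99, 11.8 and 5.45 FPKM. Psmb11, the beta subunit of the thymus, had 2.14 FPKM, and Psma8, the alpha subunit of the testis, was listed at 0 in every CTL CD93- library. The order was much the same in CTL CD93+ cells (Spearman rho 0.939 over the 35 genes that passed the filter on low values, as a description across genes that share libraries). Psma8 did not pass that filter, at least 1 FPKM in 3 libraries, and was not tested in either comparison.

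Proteasome subunit genes were compared first in CD93- cells. Of the 35 tested genes 25 were higher than in CTL CD93- cells, 0 were lower and 10 did not pass the test (limma on log2(FPKM + 1), adjusted p under 0.05 over 10960 genes), where 18.7% of all tested genes were higher and 2.79% lower. The count of 25 was 14 without Tet DKO replicate 3, 15 without Tet DKO replicate 2 and 16 with sample quality weights. Calls over all tested genes fell too, from 2045 of 10960 higher to 1180 of 10734, 1337 of 10711 and 1361 of 10960 in these fits. At an unadjusted p under 0.05, limma gave 30 higher and 0 lower, where 27.6% of all tested genes were higher and 5.61% lower. All 3 Tet DKO libraries were above all 3 CTL libraries for 32 of the 35 genes, against 31.5% of all tested genes. The median log2 change of the 35 genes was 0.52, and that of all tested genes was 0.11. After upper quartile rescaling 25 were higher and 1, Psmb11, was lower, against 17.1% and 23.8% of all tested genes, and the median change was 0.30, against -0.08 for all tested genes. Rescaled, the groups did not overlap, upward, for 28 of the 35 genes, and the share of all tested genes in that order is not given here. Of the 25 genes called higher in each scaling, 24 were shared: Psmc6 was called only with the authors' scaling and Psma3 only after rescaling.

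**Figure D1:**
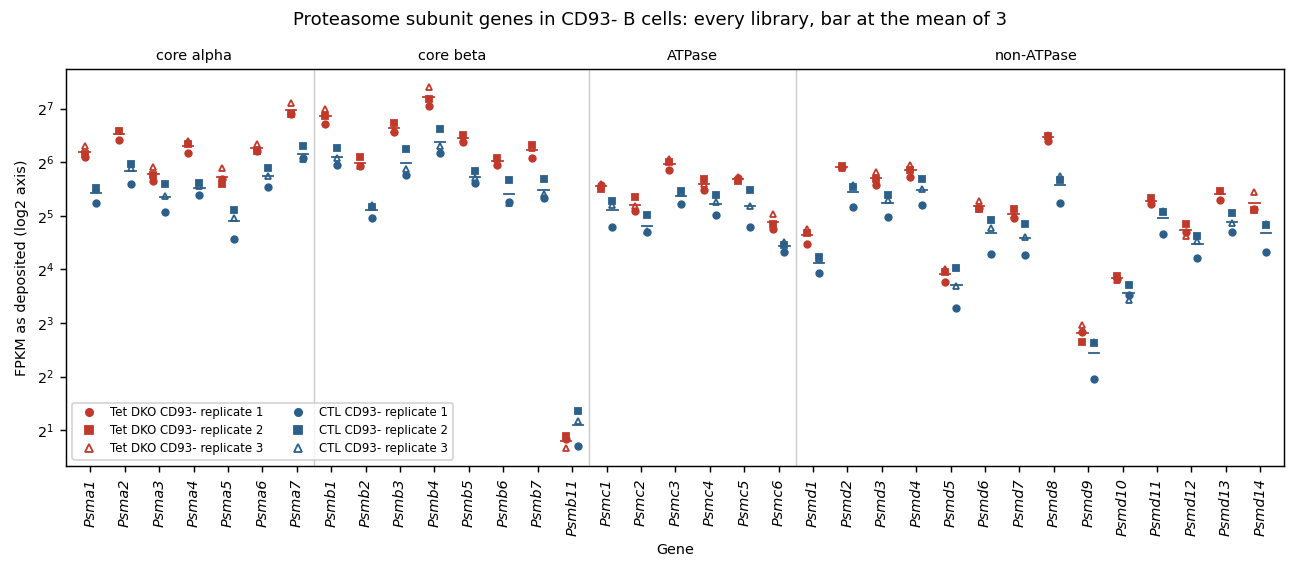
FPKM as deposited on a log2 axis for 35 genes, in order of class, in each library of Tet DKO CD93- (red, left) and CTL CD93- (blue, right) cells, with bars at the means of 3. For 32 of the 35 genes all 3 Tet DKO values lie above all 3 CTL values; Psma8, listed at 0 in all CTL libraries, is not drawn.

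Of the core alpha genes 6 of 7 tested rose with the authors' scaling, with a median log2 change of 0.75, and after rescaling all 7 rose, with a median of 0.53. Psma5 had 51.7, 48.0 and 59.1 FPKM in Tet DKO CD93- libraries, against 23.8, 34.6 and 31.0 FPKM in CTL CD93- libraries. Every Tet DKO value was above every CTL value, and the log2 change was 0.82 (SE 0.154, limma adjusted p = 0.00246). Psma7 had 119, 119 and 138 FPKM in Tet DKO libraries and 67.2, 78.9 and 66.9 FPKM in CTL libraries, again without overlap (log2 change 0.81, SE 0.132, limma adjusted p = 9.67e-04). Psma6 had 74.2, 73.9 and 81.2 FPKM in Tet DKO libraries and 46.4, 59.7 and 53.7 FPKM in CTL libraries (log2 change 0.52, SE 0.133, limma adjusted p = 0.0151). Psma3 changed least of the alpha genes. It had 50.5, 54.4 and 59.8 FPKM in Tet DKO libraries and 33.5, 48.0 and 41.1 FPKM in CTL libraries, which do not overlap, but its log2 change of 0.43 (SE 0.149) gave a limma adjusted p of 0.0599. After rescaling its change was 0.21 (limma adjusted p = 0.0392).

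Core beta genes rose by a similar median. With either scaling 7 of 8 rose, with a median log2 change over the 8 of 0.72 with the authors' scaling and 0.50 after rescaling. The chymotrypsin-like subunit Psmb5 had 83.0, 91.3 and 86.7 FPKM in Tet DKO CD93- libraries and 48.9, 57.3 and 52.4 FPKM in CTL CD93- libraries (log2 change 0.71, SE 0.124, limma adjusted p = 0.00156). The caspase-like Psmb6 had 61.4, 67.7 and 66.8 FPKM in Tet DKO libraries and 38.3, 50.8 and 37.7 FPKM in CTL libraries (0.63, SE 0.143, limma adjusted p = 0.00785). The trypsin-like Psmb7 had 67.7, 79.4 and 76.9 FPKM in Tet DKO libraries and 40.3, 51.6 and 42.1 FPKM in CTL libraries (0.73, SE 0.137, limma adjusted p = 0.00244). In none of the 3 catalytic genes did the groups overlap. The reference annotation lists 4 processed pseudogenes of these 3 genes, and how reads shared with them were assigned is not given, so their levels are less certain.

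Among the non-catalytic beta genes Psmb2 had the largest change. It had 60.6, 68.1 and 61.1 FPKM in Tet DKO CD93- libraries and 31.1, 35.98 and 37.0 FPKM in CTL CD93- libraries (log2 change 0.85, SE 0.128, limma adjusted p = 5.41e-04). Psmb3 had 94.3, 106 and 96.8 FPKM in Tet DKO libraries and 54.4, 75.9 and 58.5 FPKM in CTL libraries (0.66, SE 0.146, limma adjusted p = 0.00688). Neither gene's groups overlapped. Psmb11 stood apart from the other beta genes. Its level was near the filter, with 1.79, 1.84 and 1.60 FPKM in Tet DKO libraries and 1.63, 2.55 and 2.24 FPKM in CTL libraries, which overlap (log2 change -0.18, SE 0.159, limma adjusted p = 0.473). After upper quartile rescaling it was called lower (-0.32, limma adjusted p = 0.0434).

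ATPase genes rose by less at the median. With the authors' scaling 4 of 6 rose, with a median log2 change of 0.44, and after rescaling 3 of 6 rose, with a median of 0.23. Psmc3 had the largest change, with 57.6, 64.4 and 66.6 FPKM in Tet DKO CD93- libraries and 37.2, 44.0 and 42.9 FPKM in CTL CD93- libraries (log2 change 0.59, SE 0.129, limma adjusted p = 0.00602). Psmc4 had the smallest, with 44.4, 51.2 and 48.5 FPKM in Tet DKO libraries and 32.1, 41.9 and 38.4 FPKM in CTL libraries (0.36, SE 0.136, limma adjusted p = 0.0863). Psmc2 had 33.8, 41.0 and 36.1 FPKM in Tet DKO libraries and 26.0, 32.2 and 26.2 FPKM in CTL libraries (0.38, SE 0.137, limma adjusted p = 0.0652). In all 6 ATPase genes the deposited values of the groups did not overlap, including Psmc2 and Psmc4, which were not called. After rescaling the groups overlapped for Psmc2.

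Of the non-ATPase genes 8 of 14 rose, with a median log2 change of 0.46 with the authors' scaling and 0.24 after rescaling. By role, 6 of 8 lid genes rose (median 0.48), as did 2 of 3 base subunits, Psmd1 and Psmd2 (median of the 3, 0.47). The third base subunit, the ubiquitin receptor Psmd4, had a log2 change of 0.38 (limma adjusted p = 0.0873). Of the 3 base chaperones 0 were called, also at an unadjusted p under 0.05 in limma (median 0.26). The lid subunit Psmd8 had the largest change of all 35 genes with either scaling, with 83.8, 89.9 and 90.7 FPKM in Tet DKO CD93- libraries and 38.0, 50.6 and 53.5 FPKM in CTL CD93- libraries (log2 change 0.90, SE 0.146, limma adjusted p = 9.80e-04). Psmd14, the lid enzyme that removes ubiquitin chains from substrates, had 34.8, 34.7 and 43.4 FPKM in Tet DKO libraries and 20.1, 28.3 and 28.6 FPKM in CTL libraries (0.54, SE 0.160, limma adjusted p = 0.0297). In both genes the groups did not overlap. The chaperone Psmd5 had 13.6, 15.4 and 16.1 FPKM in Tet DKO libraries and 9.70, 16.3 and 12.96 FPKM in CTL libraries, which overlap (0.22, SE 0.170, limma adjusted p = 0.411). The lid genes Psmd11 and Psmd12 were not called with either scaling, at log2 changes of 0.33 and 0.26 with the authors' scaling.

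**Figure D2:**
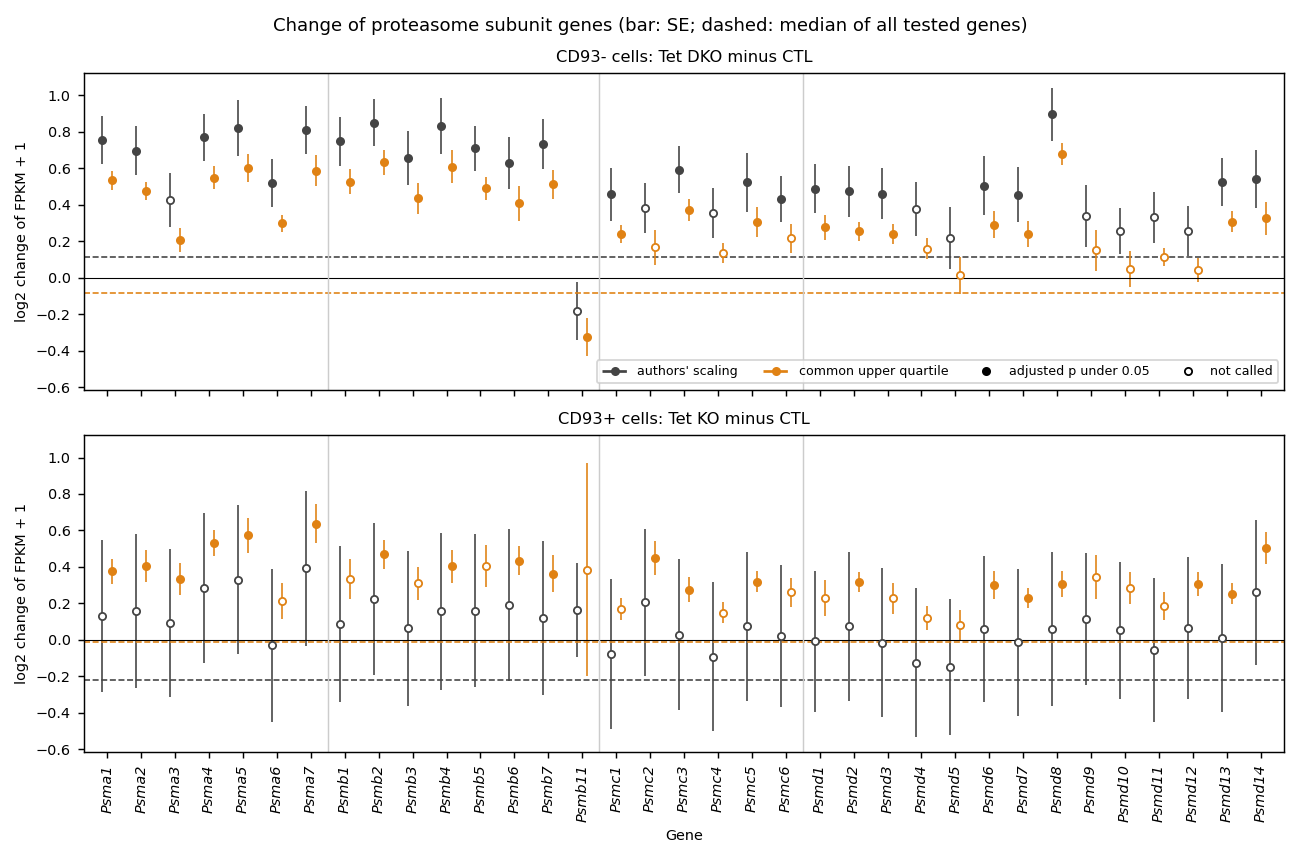
Log2 change of FPKM + 1 with its SE for 35 genes in CD93- cells (top, Tet DKO minus CTL) and CD93+ cells (bottom, Tet KO minus CTL), with the authors' scaling (grey) and after upper quartile rescaling (orange). Filled points passed limma at an adjusted p under 0.05, dashed lines are the medians of all tested genes, and in CD93+ cells no grey point is filled whereas 20 orange points are.

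Marker lists of other cell types and states were summed in the same libraries. Summed cycling, plasma cell, T cell and erythroid markers were higher in every Tet DKO library than in every CTL library, while summed myeloid markers overlapped. The counts of called markers stand against the 18.7% of all tested genes that were higher. Summed FPKM of 6 cycling genes, including Mki67 and Top2a, was 133 to 144 in Tet DKO CD93- libraries and 18.8 to 29.1 in CTL CD93- libraries, and all 6 rose. Of 6 plasma cell markers present, 4 rose, with sums of 338 to 372 FPKM in Tet DKO libraries and 72.7 to 102 FPKM in CTL libraries. Of 5 T cell markers 3 rose, with sums of 19.9 to 21.1 FPKM in Tet DKO and 9.05 to 14.4 FPKM in CTL libraries. Cd4, the T cell marker with the highest mean, was not called (log2 change 0.03, limma adjusted p = 0.935). Summed erythroid markers were 68.1 to 152 FPKM in Tet DKO and 1.19 to 44.2 FPKM in CTL libraries (3 of 4 tested rose), and myeloid markers 16.6 to 22.6 FPKM and 8.54 to 17.8 FPKM (2 of 5 tested rose). Lyz2, the myeloid marker with the highest mean, had a log2 change of -0.35 and was not called (limma adjusted p = 0.393). Summed B cell markers overlapped, at 2960 to 3112 FPKM in Tet DKO and 2713 to 3359 FPKM in CTL libraries. No listed marker was at 0 in all 6 libraries. The part of these cells and states in the proteasome result was not tested.

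Within each library the core genes could be set against the regulatory particle genes, a ratio that library scaling does not affect. Summed FPKM of the 16 core genes over the 20 regulatory particle genes was 1.47, 1.48 and 1.52 in Tet DKO CD93- libraries and 1.34, 1.28 and 1.19 in CTL CD93- libraries. All Tet DKO ratios were above all CTL ratios. The ratio of the class medians was 1.92 ± 0.0205 in Tet DKO and 1.59 ± 0.018 in CTL libraries (SD, n = 3 each), again without overlap. In CD93+ cells the ratio of sums was 1.63, 1.68 and 1.58 in Tet KO libraries and 1.48, 1.38 and 1.58 in CTL libraries. There the lowest Tet KO and the highest CTL library were nearly equal, and the ratios of medians overlapped, at 1.999 to 2.20 in Tet KO and 1.93 to 2.30 in CTL libraries. The 36 genes together took 0.446%, 0.453% and 0.458% of summed FPKM in Tet DKO CD93- libraries and 0.330%, 0.373% and 0.362% in CTL CD93- libraries. In CD93+ cells they took 0.644%, 0.677% and 0.640% in Tet KO and 0.499%, 0.473% and 0.578% in CTL libraries. The share was thus higher in every Tet2/Tet3-deficient library than in any control of the same subset.

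**Figure D3:**
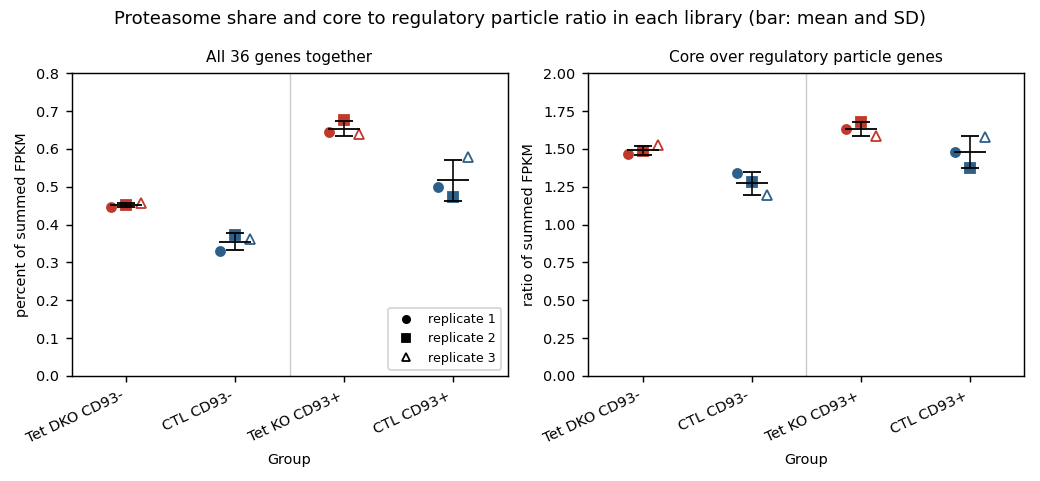
Percent of summed FPKM taken by the 36 genes (left) and ratio of summed FPKM of core over regulatory particle genes (right) in each library, with mean and SD of 3; Tet2/Tet3-deficient groups are red and controls blue. The shares do not overlap within a subset, and the ratios do not overlap in CD93- cells, while in CD93+ cells Tet KO replicate 3 and CTL replicate 3 both lie at 1.58.

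Immunoproteasome genes rose too, so the 3 catalytic pairs were compared within libraries. In CD93- cells Psmb9 averaged 235 ± 11.9 FPKM in Tet DKO and 76.2 ± 12.7 FPKM in CTL libraries (SD, n = 3 each; log2 change 1.63, limma adjusted p = 9.05e-06). Psmb8 and Psmb10 rose by log2 changes of 0.83 and 0.92 (limma adjusted p = 0.00118 and 4.74e-04). The ratio Psmb6/Psmb9 was 0.278 ± 0.0169 in Tet DKO and 0.555 ± 0.0424 in CTL libraries, a log2 difference of -0.999. The ratio Psmb5/Psmb8 was 0.339 ± 0.0121 in Tet DKO and 0.366 ± 0.0202 in CTL libraries (-0.11), and Psmb7/Psmb10 was 0.673 ± 0.0586 and 0.767 ± 0.0233 (-0.19). In CD93+ cells Psmb6/Psmb9 was 0.562 ± 0.0603 in Tet KO and 1.09 ± 0.124 in CTL libraries (-0.95), Psmb5/Psmb8 was 0.564 ± 0.0918 and 0.692 ± 0.0289 (-0.31), and Psmb7/Psmb10 was 1.29 ± 0.0494 and 1.53 ± 0.0903 (-0.24). In each of the 6 comparisons all 3 Tet2/Tet3-deficient libraries were below all 3 controls, and the exact two-sided permutation p was 0.1 (adjusted over the 6 tests 0.1). With 3 libraries against 3 the smallest p the test can give is 0.1, so it could not pass 0.05.

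**Figure D4:**
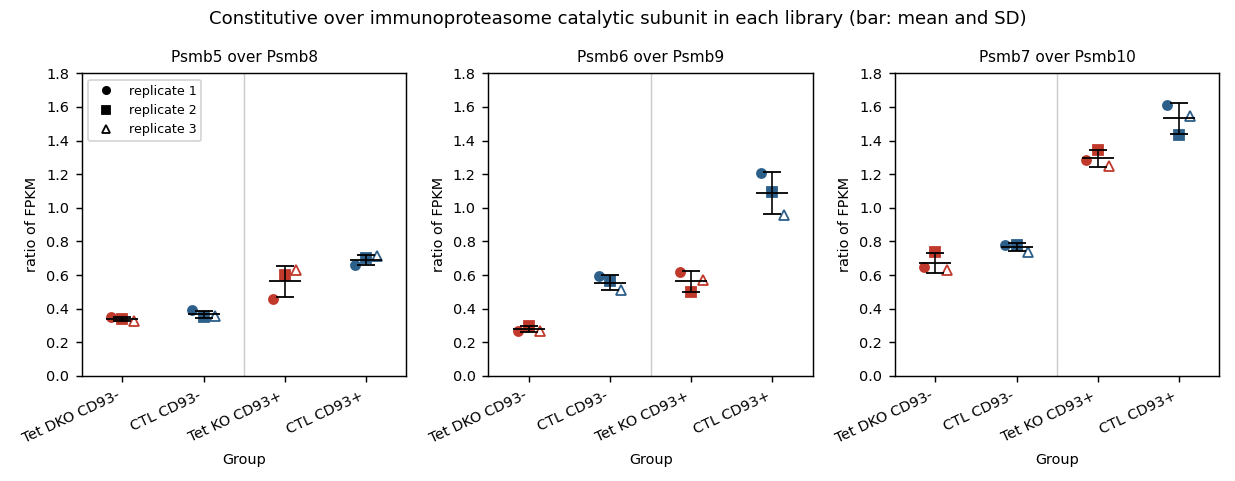
FPKM ratio of each constitutive catalytic gene to its immunoproteasome counterpart in each library, with mean and SD of 3; Tet2/Tet3-deficient groups are red and controls blue. In every panel the 3 red points lie below the 3 blue points of the same subset, with the widest gap for Psmb6/Psmb9.

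Other genes of the pathway in CD93- cells moved in part, and their counts stand against the 18.7% of all tested genes that were higher, a share that 1 of 6 or 1 of 4 does not set apart. Among 5 core assembly chaperones 3 rose, Pomp (log2 change 0.62, limma adjusted p = 0.00662), Psmg4 (0.76, 0.00314) and Psmg1, where Pomp is the maturation factor of the beta ring. Among 5 genes for activators and the inhibitor of the core, 2 rose, Psme1 (0.95, limma adjusted p = 9.81e-04) and Psme2 (0.63, 0.0125), the subunits of the interferon-inducible activator. Of 3 proteasomal deubiquitinases, Psmd14 and Uchl5 (0.63, limma adjusted p = 0.0274) rose. Further calls were Shfm1 of 2 further regulatory particle subunits, Rad23b of 6 ubiquitin shuttles, Ubb among the ubiquitin and E1 genes, and Vcp (0.69, limma adjusted p = 0.00378), the ATPase that extracts ubiquitinated proteins, of 4 genes of its complex. Of 5 tested genes of the Nfe2l1 pathway 0 were called with the authors' scaling, and 1, Ngly1, passed an unadjusted p under 0.05 in limma. Nfe2l1 averaged 22.9 FPKM in Tet DKO and 23.6 FPKM in CTL libraries (log2 change -0.04, limma adjusted p = 0.894), and after rescaling it was lower (-0.25, limma adjusted p = 0.0162).

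In CD93+ cells the result depended on the scaling. With the authors' scaling 0 of the 35 tested genes were higher or lower in Tet KO than in CTL cells in limma, and 0 passed an unadjusted p under 0.05, where 1.67% of 11250 genes were higher and 1.54% lower (3.88% and 8.02% at the unadjusted p). Tet KO replicate 3 was below the other Tet KO libraries and below every control for 34 of the 35 genes, while Tet KO replicates 1 and 2 were both above every control for 31. The shares of all tested genes in these orders were not computed. Replicate 3 also had the lowest summed FPKM, 309359, so its order cannot be read as particular to these genes. Without Tet KO replicate 3, 2 genes were called higher, Psma5 (limma adjusted p = 0.0357) and Psmc2 (0.0461). In that fit 487 of 11107 tested genes were higher, a share from which 2 of 35 does not stand apart. With upper quartiles made equal, 20 were higher and 0 lower, where 11.4% of all tested genes were higher and 9.34% lower, and the groups did not overlap, upward, for 29, against 20.9% of all tested genes. The count of 20 was 7 without CTL replicate 1, 8 without CTL replicate 2, 9 without Tet KO replicate 2, 13 without Tet KO replicate 1 and 0 with sex as a covariate. In that order, these fits called 581 of 11093, 579 of 11073, 590 of 11062, 728 of 11057 and 398 of 11250 tested genes higher. At the last of these shares, 0 of 35 does not stand apart. The rescaled fit of all 6 libraries called 1280 of 11250 higher. The class counts given next rest on this rescaled fit of all 6 libraries. The rescaled median change was 0.32, against -0.01 for all tested genes. With the authors' scaling it was 0.07, against -0.22.

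**Figure D5:**
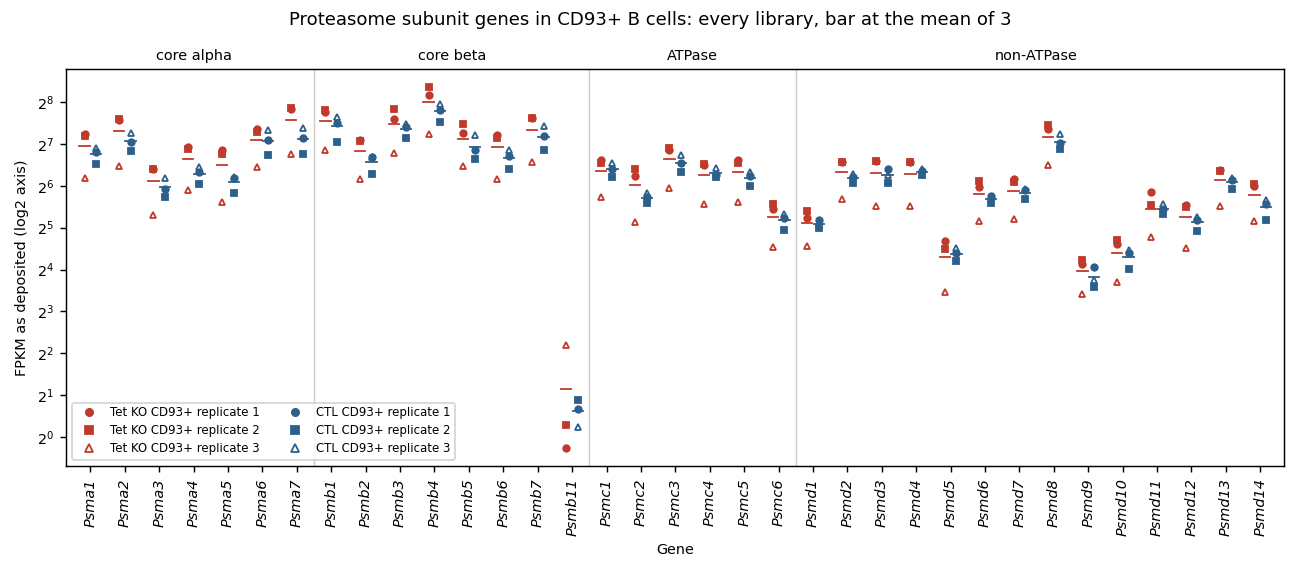
FPKM as deposited on a log2 axis for 35 genes in each library of Tet KO CD93+ (red, left) and CTL CD93+ (blue, right) cells, with bars at the means of 3. The open red triangle, Tet KO replicate 3, is the lowest of the 6 values for 34 of the 35 genes, and the other Tet KO libraries lie above all controls for 31. The shares of all tested genes in these orders were not computed.

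Rescaled, 6 of 7 core alpha genes were called, with a median of 0.40. Psma7 had 227, 232 and 108 FPKM as deposited in Tet KO CD93+ libraries and 140.1, 109 and 165 FPKM in CTL CD93+ libraries, where the groups overlap through replicate 3 (log2 change 0.39, SE 0.424, limma adjusted p = 0.755). Rescaled it had 196, 208 and 181 FPKM in Tet KO and 127, 108 and 141 FPKM in CTL libraries, with no overlap, and the largest rescaled change of the 35 genes (0.64, SE 0.109, limma adjusted p = 0.0121). Psma5 had 100.3, 96.6 and 82.0 rescaled FPKM in Tet KO and 65.7, 57.0 and 63.2 in CTL libraries (0.57, limma adjusted p = 0.0117). Psma6 was the alpha gene not called, at 141, 139.6 and 145 rescaled FPKM in Tet KO and 124, 107 and 138 in CTL libraries (0.21, limma adjusted p = 0.163). Psma3 had a rescaled change of 0.34 (limma adjusted p = 0.0397).

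Among core beta genes 4 of 8 were called after rescaling (median 0.39). Psmb2 had 118, 121 and 119 rescaled FPKM in Tet KO CD93+ and 93.1, 77.0 and 88.3 in CTL CD93+ libraries (0.47, SE 0.0805, limma adjusted p = 0.0123). Of the catalytic genes, Psmb6 had 129, 126 and 120.0 rescaled FPKM in Tet KO and 95.2, 83.8 and 98.5 in CTL libraries (0.43, limma adjusted p = 0.0136), and Psmb7 had 169, 176 and 159.5 in Tet KO and 132, 114 and 147 in CTL libraries (0.36, limma adjusted p = 0.0452). Psmb5 had 131, 160.4 and 147 in Tet KO and 105, 99.4 and 127 in CTL libraries and was not called (0.40, limma adjusted p = 0.0523), although its groups did not overlap. Psmb3 was not called either, at 167, 206 and 183 rescaled FPKM in Tet KO and 153, 141 and 153 in CTL libraries (0.31, limma adjusted p = 0.0545). The deposited FPKM of Psmb11 was 0.843, 1.22 and 4.56 in Tet KO and 1.59, 1.85 and 1.19 in CTL libraries, so that for this gene Tet KO replicate 3 was the highest library.

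Of the ATPase genes 3 of 6 were called after rescaling (median 0.27). Psmc2 had the largest change, with 65.0, 75.4 and 59.0 rescaled FPKM in Tet KO CD93+ and 48.4, 48.1 and 48.3 in CTL CD93+ libraries (0.45, SE 0.0937, limma adjusted p = 0.0216). Psmc3 had 101, 107 and 103 in Tet KO and 84.8, 80.4 and 91.7 in CTL libraries (0.27, limma adjusted p = 0.0355). Psmc4 had 78.1, 82.5 and 79.2 in Tet KO and 69.5, 73.3 and 73.0 in CTL libraries, without overlap but not called (0.15, limma adjusted p = 0.109).

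Of the non-ATPase genes 7 of 14 were called after rescaling (median 0.27). They were 6 of 8 lid genes and 1 of 3 base subunits, Psmd2, while 0 of the 3 base chaperones were called and 2 of those 3 passed an unadjusted p under 0.05 in limma. Psmd14 had the largest change of the class, with 55.3, 58.9 and 59.8 rescaled FPKM in Tet KO CD93+ and 43.2, 36.1 and 42.9 in CTL CD93+ libraries (0.50, SE 0.0869, limma adjusted p = 0.0125). Psmd8, which led in CD93- cells, had 142, 158 and 150.4 rescaled FPKM in Tet KO and 118, 116 and 129 in CTL libraries (0.31, limma adjusted p = 0.0281). Psmd5 changed least, at 22.1, 20.1 and 18.4 in Tet KO and 19.2, 18.4 and 19.5 in CTL libraries, which overlap (0.08, limma adjusted p = 0.525).

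Several measured features moved with the CD93+ groups. Sex was confounded with genotype, because every Tet KO library came from a female and 2 of the 3 controls from males. With sex as a covariate limma called 0 of the 35 genes with either scaling, where 80 and, after rescaling, 398 of 11250 tested genes were higher. At an unadjusted p under 0.05 that fit gave 0 genes with the authors' scaling, where 2.34% of all tested genes were higher. After rescaling it gave 19 higher, where 12.7% of all tested genes were higher. Rescaled, all 3 Tet KO libraries were above the single female control for 33 of 35 genes, against 31.7% of all tested genes, and the mean of the Tet KO libraries was a median of 1.21 times that control. With the authors' scaling this held for 0 of 35 genes, against 5.81% of all tested genes, and the median ratio was 0.994. Summed erythroid markers were 2168 to 9039 FPKM in Tet KO and 8510 to 40143 FPKM in CTL libraries, and 4 of 5 fell with the authors' scaling, while limma called 0 of 5 after rescaling (3 lower at an unadjusted p under 0.05). The high sums, 40143 and 34184 FPKM, were those of the 2 male controls, and the female control had 8510 FPKM. Summed plasma cell markers were 874 to 1512 FPKM in Tet KO and 151 to 209 FPKM in CTL libraries, and 4 of 6 rose. Cycling genes summed to 282 to 508 FPKM in Tet KO and 450 to 507 FPKM in CTL libraries, with 0 of 6 called by limma with either scaling (0 with the authors' scaling and 1 after rescaling at an unadjusted p under 0.05). B cell markers summed to 1403 to 2946 FPKM in Tet KO and 3003 to 3950 FPKM in CTL libraries. Myeloid markers summed to 396 to 1254 FPKM and 1229 to 1720 FPKM, and T cell markers to 28.6 to 97.3 FPKM and 40.8 to 53.2 FPKM. Of 6 B cell markers limma called 1 lower with the authors' scaling and 4 lower after rescaling. Of 7 myeloid markers it called 0 and, after rescaling, 2 lower, and of 5 T cell markers 0 with either scaling. Of all tested genes 1.54% were lower with the authors' scaling and 9.34% after rescaling. No listed marker was at 0 in all 6 libraries. The part of these cells in the proteasome values was not tested, and sex and genotype cannot be told apart.

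In the related lists limma called 0 genes in CD93+ cells with the authors' scaling, from the immunoproteasome to the Nfe2l1 pathway. At an unadjusted p under 0.05 in limma, Psmb9 was higher and Psme4 and Mafk were lower. Of all tested genes 3.88% were higher and 8.02% lower at that threshold, shares from which these genes do not stand apart. The rescaled calls that follow stand against 11.4% of all tested genes higher and 9.34% lower. Rescaled, the 3 immunoproteasome genes rose, led by Psmb9 (1.38, limma adjusted p = 0.00205), with Psmb8 at 0.71 and Psmb10 at 0.60. Psme2 (0.89, limma adjusted p = 0.00712) and Psme1 (0.60, 0.00371) rose, while Psme4, another activator of the core, fell (-0.61, limma adjusted p = 0.00398). Of the 5 core assembly chaperones 3 rose, Psmg1 (0.56, limma adjusted p = 0.0257), Psmg3 and Pomp (0.39, 0.0126), and Vcp rose by 0.32 (limma adjusted p = 0.0113). Nfe2l1 averaged 17.5 FPKM in Tet KO and 21.6 FPKM in CTL libraries as deposited, with a rescaled change of -0.14 (limma adjusted p = 0.326).

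The subsets were deposited in separate tables and were therefore not tested against each other. After rescaling, 18 genes were called higher in both comparisons, which share no library, out of 25 called in CD93- and 20 called in CD93+ cells. Of all tested genes 17.1% were higher in CD93- and 11.4% in CD93+ cells, and the share called in both was not computed. The CD93+ count was 0 with sex as a covariate. Psmc2 and Psmd12 were called only in the CD93+ comparison, and whether their changes differ between the subsets was not tested. Across the 35 genes the rescaled changes in the comparisons had a Spearman rho of 0.578, as a description across genes that share libraries. In both comparisons the medians of the alpha and beta genes, 0.53 and 0.50 in CD93- and 0.40 and 0.39 in CD93+ cells, were above those of the ATPase and non-ATPase genes, 0.23 and 0.24 in CD93- and 0.27 and 0.27 in CD93+ cells.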

How the data were processed

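Libraries came from a strand-specific SureSelect kit, per the labels' protocols. Bowtie2 2.1.0, TopHat2 2.0.8, Cufflinks 2.1.1 and build mm9 are listed, per the submitters' processing notes, and the annotation is not given in the sources used here. The authors deposited FPKM without fragment counts, so the depth is unknown and no counting interval can be given. Of 24 samples, 12 are not analysed here, and 6 further columns in the CD93+ table repeat others and were not used. Genes with at least 1 FPKM in 3 libraries were tested on log2(FPKM + 1), a scale that understates changes of low genes, with limma 3.58.1 in R 4.3.3 (trended prior, Benjamini-Hochberg adjustment over all tested genes), separately in each table and tested on simulated data. Fold changes are Tet2/Tet3-deficient minus control. Alternatives were other pseudocounts, filters and scalings, sample weights, a replicate block, sex as a covariate and leaving out each library. The members and gene lists were chosen with earlier results of these data known. Library values are given for the catalytic genes, Psmd14 and, per class, the largest and smallest changes in each comparison. Promoters are from RefSeq, GRCm38.p6, and no mm9 coordinates are given. Pseudogenes are from GENCODE.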

Additional observations from a re-analysis of the deposited data

How the results depend on the processing

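In CD93- cells the count of proteasome genes called higher, 25, was 16 with sample quality weights and 14 to 29 on leaving out 1 library (14 without Tet DKO replicate 3, 15 without Tet DKO replicate 2, each with fewer samples). The count of all tested genes called higher, 2045, moved as well, to 1361 with the weights and 1180 to 2630 on leaving out 1 library. The count called lower, 0, was 1 after upper quartile rescaling and 1 after quantile normalization, and 0 to 1 on also leaving out 1 library. In CD93+ cells the count called higher, 0, was 20 after upper quartile rescaling and 14 after quantile normalization. It was 0 to 2 on leaving out 1 library, and 7 to 20 on doing so after rescaling, with 7 without CTL replicate 1, 8 without CTL replicate 2, 9 without Tet KO replicate 2, 13 without Tet KO replicate 1 and 14 without Tet KO replicate 3. Over all tested genes, 80 to 487 were higher on leaving out 1 library and 579 to 1195 on doing so after rescaling. Same-numbered libraries did not deviate together (correlations of 0.02, -0.11 and -0.09 in CD93- and 0.17, -0.11 and -0.14 in CD93+ cells). With the replicate block 28 genes were higher in CD93- and 0 in CD93+ cells, and 4 were higher in CD93+ cells with the block after rescaling. Over all tested genes these 3 fits called 2435, 138 and 541 higher. Sex as a covariate was planned only if both sexes occurred in both groups, which was not so, and was run all the same as an alternative chosen after seeing the data, as were leaving out libraries and the block after rescaling. The cause of these shifts was not tested. Over all genes, upper quartile rescaling gave 1869 higher and 2609 lower in CD93- cells, against 2045 and 306 with the authors' scaling, and 1280 and 1051 in CD93+ cells, against 188 and 173. The 6 catalytic ratios kept their direction under every alternative run. Without fragment counts, what depth limits cannot be stated.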
